A study of Mus musculus with 51 samples.

Results

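The genes described here are 127 mouse olfactory receptor (OR) genes of chromosome 2, of 1117 OR genes counted in every library (11.4%). They were chosen by symbol, as the ORs numbered from *Olfr1141* to *Olfr1317*, of which the tables held 139. Left out by rule were 12 receptors of that range, namely *Olfr1183*, *Olfr1184*, *Olfr1195*, *Olfr1199*, *Olfr1202*, *Olfr1206*, *Olfr1209*, *Olfr1218*, *Olfr1220*, *Olfr1280*, *Olfr1295* and *Olfr1312*. Receptors that changed with an odor in these libraries are among the 12, so the counts below do not describe the whole numbered range.

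All 127 members mapped to chromosome 2 of the GRCm38 assembly, in 2 stretches separated by 20.8 Mb. The proximal stretch held the 94 members from *Olfr1141* to *Olfr1274* (chr2:87753056-90403897), and the distal stretch held the 33 members from *Olfr1275* to *Olfr1317* (chr2:111230360-112144054). GENCODE annotated 126 members as protein coding and 1 as a pseudogene. A MOR name, which places a receptor in a family of related sequence, was available for 122 members, in 19 families. The large families each lay in a single stretch: MOR233 (16 members), MOR174 (14), MOR231 (14) and MOR225 (10) in the proximal stretch, MOR245 (19) and MOR248 (14) in the distal stretch.

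ORs are G protein-coupled receptors that bind volatile ligands on the cilia of olfactory sensory neurons (OSNs). A mature OSN expresses a single allele of a single OR gene, so the mRNA of an OR reports on the neurons that chose it. When an odorant activates an OSN, ribosomal protein S6 becomes phosphorylated, and immunoprecipitation with an antibody to phosphorylated S6 (pS6-IP) enriches the ribosome-bound mRNA of the active neurons, the transcripts of the responding receptors included.

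Wild-type C57BL/6J mice of about 3 weeks, littermates of mixed sex, were habituated for 1 hr and then exposed for 1 hr to 10 µL of a stimulus or of a diluent, and pS6-IP RNA of the whole olfactory mucosa was sequenced, 1 library per mouse. There were 51 libraries, 3 in each of 10 odor groups (30) and of 7 diluent groups (21). The OR reads per library ranged from 27301 to 160001, with a median of 93870. Measured as the share of a library's OR reads, a receptor's level is relative to all other ORs. In such bulk pS6-IP samples, fewer neurons of a type, less RNA per neuron and less phosphorylated S6 in them cannot be told apart. This holds for the levels in diluent too.

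The odor groups received 2-sec-butyl-4,5-dihydrothiazole (SBT, a volatile of male mouse urine) at 0.01%, 1% or 100%, (methylthio)methanethiol (MTMT, also from male urine) at 100 µM or 10 mM, (E)-β-farnesene (a terpene of male preputial gland) at 100%, 2,5-dimethylpyrazine (2,5-DMP, from female urine) at 1%, dehydro-exo-brevicomin (DHB, from male urine) at 77%, cyclopentadecanone (CPD, a macrocyclic musk) at 100 mM, or β-caryophyllene (a plant sesquiterpene) at 1%. The paper lists β-caryophyllene too among the mouse urine constituents that it screened. Per the methods, MTMT and CPD were diluted in ethanol and the other stimuli in water, and control mice received water or ethanol. For 100% SBT the paper's figure legend names no solvent. The 1% and 100% SBT groups were compared with the same 3 diluent libraries, and farnesene, 2,5-DMP and 100 µM MTMT shared another 3, so comparisons within each of these sets are not independent. Which solvent the latter 3 libraries received is not given in the sources used here. As MTMT was in ethanol and the other stimuli of that set in water, at least 1 of the 3 comparisons had a different solvent from its control, and there solvent and odor cannot be told apart. The tables held OR genes and no others, so the tissue could not be checked against markers of its cell types.

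A pair of libraries went against their labels at receptors outside the set. In the library labelled 10 mM MTMT odor 1, *Olfr235* took 0.903% of OR reads and *Olfr1295* 0.0876%, while the libraries labelled 10 mM MTMT odor 2 and odor 3 had *Olfr235* at 0.0282% and 0.0286% and *Olfr1295* at 0.424% and 0.491%. In the library labelled CPD odor 2, *Olfr235* took 0.0432% and *Olfr1295* 0.432%, while the libraries labelled CPD odor 1 and odor 3 had *Olfr235* at 1.04% and 0.426% and *Olfr1295* at 0.0858% and 0.101%. At these receptors each of the pair was closer to the other experiment's odor libraries than to its own. A high *Olfr235* also occurred without odor, at 0.497% in the library labelled CPD control 1 (0.0380% and 0.0507% in the other CPD diluent libraries). *Olfr1437*, looked at as well, took 0.511% and 0.103% in the pair but varied from 0.0740% to 6.29% and from 0.0880% to 0.721% among the other odor libraries of the 10 mM MTMT and CPD experiments. Whether their labels were exchanged was not tested, and the groups were kept as labelled. For the 10 mM MTMT and CPD comparisons, the calls and some other values below are also given without the library concerned. The remaining values include it.

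Sequence relatedness sets how far the reads can separate the members. For 126 members a coding sequence could be read from the assembly, 909 to 1008 bases long. The identity of a member's coding sequence to that of its nearest relative among the ORs of the tables ranged from 69.8% to 97.5%, with a median of 87.9%. For 94 of the 126 that relative lay within 100 kb on the same chromosome, and for 0 of them in the opposite stretch. Of the 127 annotated transcripts, 28 shared no stretch of 50 bases with another gene and 29 shared more than 10% of such stretches. *Olfr1282* shared the most, 49.8%, and its counts depend on how shared reads were assigned.

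In diluent, the members spanned a wide range of levels. *Olfr1258*, a receptor of family MOR232, was the highest by share, at 0.650% of OR reads as the mean of the 7 diluent groups, and ranged from 0.292% to 1.33% over the 21 diluent libraries. *Olfr1228* (MOR233) followed at 0.438%, then *Olfr1226* at 0.370%, *Olfr1264* at 0.314%, *Olfr1213* at 0.286%, *Olfr1261* at 0.269%, *Olfr1222* at 0.246% and *Olfr1263* at 0.244%. These 8 all lay in the proximal stretch. The libraries of *Olfr1258* and *Olfr1228* overlapped, as *Olfr1228* ranged from 0.265% to 0.640%.

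Scaled to exon length, the order at the top changed. Per kb of exon and per 100000 OR reads, *Olfr1228* was the highest at 134 ± 38.0 reads (SD, n = 21 libraries), followed by *Olfr1213* at 110 and *Olfr1258* at 91.6 ± 41.2. Of the 8 highest members by share, 6 were also among the 8 highest per kb, where *Olfr1257* (81.7) and *Olfr1283* (59.4 ± 51.1) took the other places. The SDs of neighbours in this order overlapped.

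**Figure D1:**
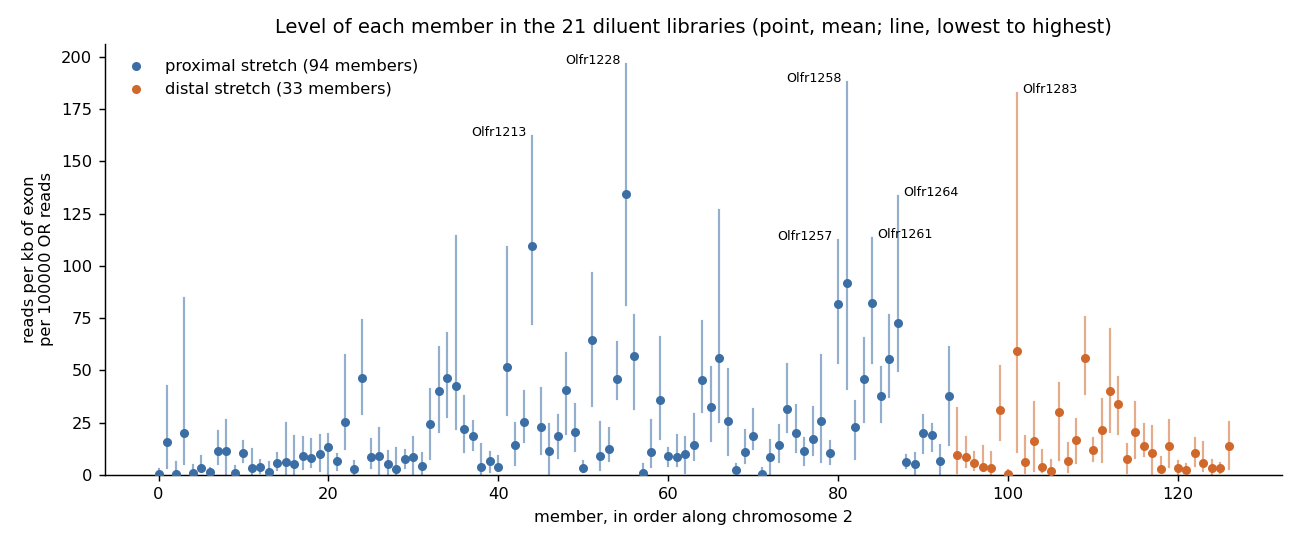
Level of each of the 127 members in diluent, in reads per kb of exon per 100000 OR reads, in order along chromosome 2, with the proximal stretch in blue and the distal in orange, a point for the mean of the 21 diluent libraries and a line from the lowest to the highest. The highest member is *Olfr1228* at 134, and the median of the members is 11.3.

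The median level over the 127 members was 11.3 reads per kb per 100000 OR reads, beside 14.8 over the 978 ORs that were neither members nor left out. It was 11.9 in the proximal stretch and 9.36 in the distal stretch. Of the summed share of the members, 19 receptors took 50%. Among the 13 families with at least 3 members, the median level per kb was highest for MOR234 (55.4, 3 members), MOR232 (35.6, 6 members) and MOR233 (23.9, 16 members), and lowest for MOR173 (3.90, 3 members) and MOR177 (1.11, 5 members). No test was made between families, whose members share sequence and position.

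At the other end, *Olfr1282* had no read in 19 of the 21 diluent libraries, *Olfr1141* in 17, *Olfr1248* in 16 and *Olfr1145* in 16. All 127 members had a read in at least 1 of the 51 libraries, and 99 of them in every diluent library. Among members with a mean of at least 20 reads, the SD of log2 share between libraries of a group was smallest for *Olfr1226* (0.25), *Olfr1200* (0.27) and *Olfr1247* (0.28), and largest for *Olfr1148* (0.91), *Olfr1204* (0.80) and *Olfr1283* (0.73). The median of this SD was 0.47 over the members and 0.48 over the other ORs.

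Single libraries stood out for a few members. *Olfr1148* took 0.436% of OR reads in the library labelled β-caryophyllene odor 2 (436 reads, 95% Wilson interval 0.397% to 0.479%, which covers counting error only), which was 10.6 times its median over the 51 libraries. In the other β-caryophyllene odor libraries it took 0.0406% and 0.0862%, and in their diluent libraries 0.0659%, 0.117% and 0.0380%. The ratio of highest library to median was 10.2 for *Olfr1272*, 7.34 for *Olfr1160* and 6.70 for *Olfr1154*, each in the library labelled 100% SBT odor 2, and 6.54 for *Olfr1283* in a diluent library, replicate 1 of the 1% and 100% SBT experiment. The highest library exceeded 5 times the median for 8 members (7.69% of those with a median of at least 10 reads), beside 11.7% of the other ORs.

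Summed over the 127 members, the mean share of OR reads in odor groups ranged from 7.78% (100% SBT, 3 libraries of 7.34% to 8.61%) to 10.3% (CPD, 10.1% without the library labelled CPD odor 2). In diluent groups the mean ranged from 8.36% (the β-caryophyllene diluent) to 10.2% (the DHB diluent). Single libraries ranged from 6.90% (labelled β-caryophyllene odor 1) to 10.8% (labelled DHB control 2). The diluent groups differed from each other in a permutation test on the F statistic (F = 5.21, p = 0.00614), but not when scaled by the trimmed mean of M values (TMM; F = 0.65, p = 0.682) or without the β-caryophyllene experiment (F = 2.14, p = 0.137).

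**Figure D2:**
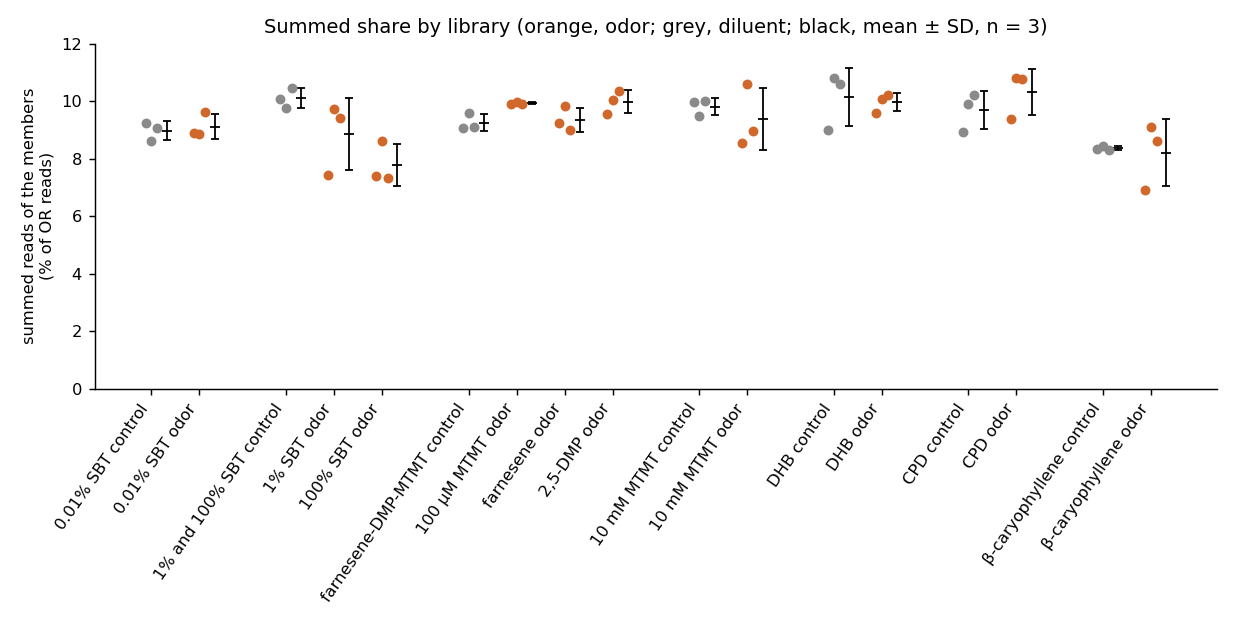
Summed share of OR reads taken by the 127 members, in percent, in each of the 51 libraries, by group, with orange points for odor libraries, grey points for diluent libraries and black bars for the group mean ± SD (n = 3). The means lie between 7.78% for 100% SBT and 10.3% for CPD.

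The odor and diluent libraries did not overlap in 3 comparisons. The summed share was 7.34% to 8.61% at 100% SBT and 7.43% to 9.73% at 1% SBT, against 9.78% to 10.5% in their common diluent, and 9.92% to 9.99% at 100 µM MTMT against 9.07% to 9.60%. In the library labelled 1% SBT odor 1, at 7.43%, *Olfr545*, outside the set, took 14.4% of OR reads, which lowers every other share in it. The other 1% libraries were at 9.73% and 9.44%. Likewise, *Olfr541* took 9.79% in the library labelled 10 mM MTMT odor 3. For 100% SBT the log2 difference was -0.38 (SE 0.08) by share but 0.07 when scaled by TMM, for 1% SBT it was -0.20 and -0.04, and for 100 µM MTMT 0.10 by share. Each had an exact two-sided permutation p of 0.1, the smallest that 3 against 3 libraries allow, and 0.333 when adjusted over the 10 comparisons. In a permutation test within the 7 experiments together, odor minus diluent was -0.03 by share (p = 0.354), -0.03 without the library labelled 10 mM MTMT odor 1 and the library labelled CPD odor 2 (p = 0.415, chosen after seeing the data), and 0.10 when scaled by TMM (p = 0.0326).

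At 100% SBT, 8 members rose and 1 fell of the 117 tested (edgeR quasi-likelihood test with Benjamini-Hochberg adjustment over all ORs tested, adjusted p below 0.05). This was 6.84% of the members in the upward direction, beside 10.7% of all 1050 ORs tested, and in the downward direction 1 member beside 0.762% of ORs. The members that rose were *Olfr1154*, *Olfr1160*, *Olfr1189*, *Olfr1193*, *Olfr1238*, *Olfr1242*, *Olfr1272* and *Olfr1297*, and *Olfr1258* fell. The receptors came from families MOR173, MOR237, MOR226, MOR231, MOR227, MOR248 and MOR232.

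The size of the median change and the number of members called lower depended on the scaling. Without TMM the median log2 fold change over all ORs was -0.47 in place of -0.07, that of the members was -0.62 in place of -0.24, and the calls split into 6 members higher and 7 lower (85 and 42 ORs), with *Olfr1258*, *Olfr1260*, *Olfr1261*, *Olfr1262*, *Olfr1264*, *Olfr1283* and *Olfr1305* lower. In a fit blocked on replicate number, 11 members were higher and 4 lower, beside 11.9% and 1.71% of ORs, including all 9 above and also *Olfr1143* (1.60), *Olfr1182* (1.50) and *Olfr1243* (1.29), with *Olfr1214* (-2.60), *Olfr1283* (-1.43) and *Olfr1264* (-0.82) lower. Of the 9, *Olfr1154*, *Olfr1160*, *Olfr1189*, *Olfr1238*, *Olfr1272* and *Olfr1297* passed in all 13 settings tried, *Olfr1193* in 11, and *Olfr1242* and *Olfr1258* in 9.

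**Figure D3:**
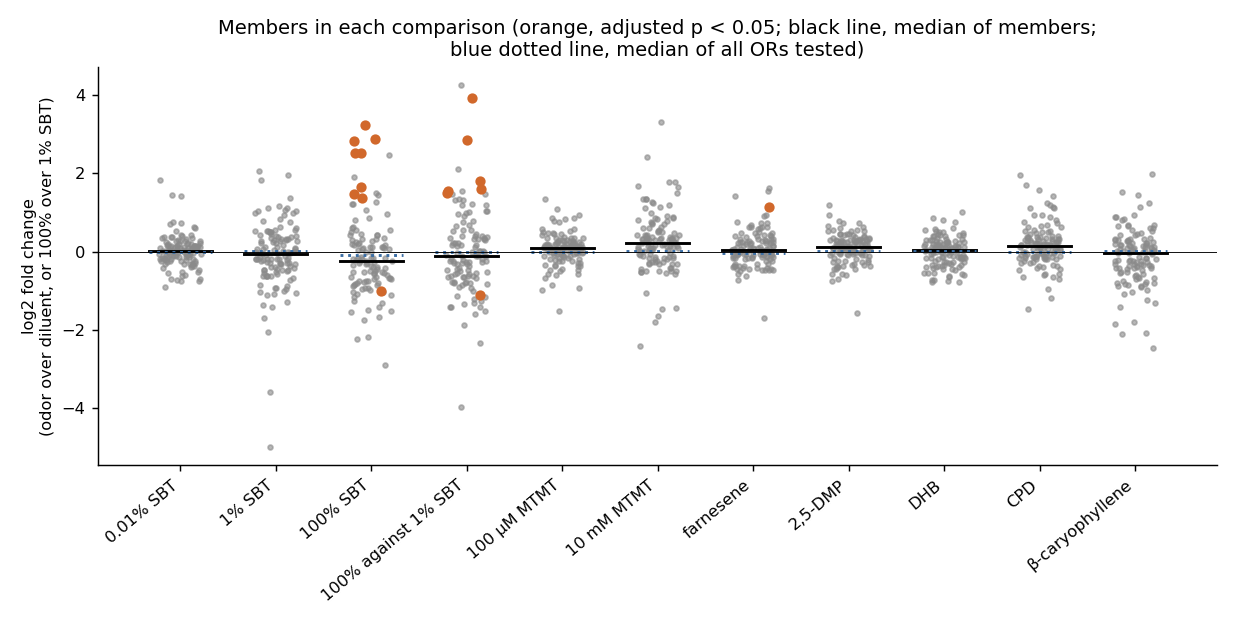
Log2 fold change of each tested member, odor over diluent or 100% over 1% SBT, with TMM scaling, with members past an adjusted p of 0.05 in orange, a black line for the members' median and a blue dotted line for that of all ORs tested. Orange points appear in 100% SBT (8 above 0 and 1 below), in 100% against 1% SBT (6 and 1) and in farnesene, where *Olfr1259* is at 1.15.

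*Olfr1160* and *Olfr1154* are receptors of family MOR173 that lie 99.7 kb apart in the proximal stretch. *Olfr1160* (chr2:88000927-88008268, minus strand) took 0.0114%, 0.0210% and 0.0403% of OR reads in diluent, 0.00724%, 0.0482% and 0.0283% at 1% SBT, and 0.168%, 0.176% and 0.153% at 100% SBT. All 3 libraries at 100% SBT lay above the other 6, which overlapped. Its log2 fold change over diluent was 3.25 (SE 0.45, adjusted p = 0.000353).

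*Olfr1154* (chr2:87901256-87905166, minus strand) took 0.0273%, 0.0612% and 0.0147% in diluent, 0.0990%, 0.0693% and 0.0408% at 1% SBT, and 0.146%, 0.244% and 0.0799% at 100% SBT. The libraries at 100% SBT lay above diluent, and the lowest of them lay within the range at 1%. The log2 fold change over diluent was 2.51 (SE 0.54, adjusted p = 0.00682), and 3.22 without diluent replicate 2. The coding sequences of *Olfr1154* and *Olfr1160* were 94.4% identical, 9.95% of the 50-base stretches of the *Olfr1154* transcript and 5.02% of those of *Olfr1160* were shared with another gene, and their values are uncertain to that extent. *Olfr1158*, a further MOR173 receptor between them (94.4% and 93.6% identical to *Olfr1160* and *Olfr1154*), had 0 reads in the 3 diluent libraries and 0, 5 and 0 reads at 100% SBT, too few to be tested.

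The 300 bases before the annotated 5′ ends are shown for 5 of the members that changed, to compare the relatives *Olfr1154* and *Olfr1160* with members of other families. They were read from the GRCm38.p6 assembly at the 5′ ends of GENCODE M21, written 5′ to 3′ on the strand of the gene, with every TAATTA or TAATTG, the core letters of a homeodomain motif, in capitals. The windows are chr2:87905167-87905466 (minus strand), chr2:88008269-88008568 (minus strand), chr2:111626498-111626797 (minus strand), chr2:90292842-90293141 (minus strand) and chr2:89927009-89927308 (plus strand) in the order printed.
Olfr1154: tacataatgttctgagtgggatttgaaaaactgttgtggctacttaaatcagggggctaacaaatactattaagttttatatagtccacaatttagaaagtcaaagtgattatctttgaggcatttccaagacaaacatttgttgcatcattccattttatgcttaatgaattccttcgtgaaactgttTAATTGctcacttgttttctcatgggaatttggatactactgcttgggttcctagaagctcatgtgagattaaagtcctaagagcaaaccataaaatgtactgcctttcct
Olfr1160: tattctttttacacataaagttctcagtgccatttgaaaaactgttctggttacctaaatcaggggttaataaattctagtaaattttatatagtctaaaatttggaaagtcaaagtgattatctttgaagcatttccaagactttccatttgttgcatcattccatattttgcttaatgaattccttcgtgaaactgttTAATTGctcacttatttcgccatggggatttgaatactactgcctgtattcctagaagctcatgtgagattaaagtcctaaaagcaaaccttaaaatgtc
Olfr1297: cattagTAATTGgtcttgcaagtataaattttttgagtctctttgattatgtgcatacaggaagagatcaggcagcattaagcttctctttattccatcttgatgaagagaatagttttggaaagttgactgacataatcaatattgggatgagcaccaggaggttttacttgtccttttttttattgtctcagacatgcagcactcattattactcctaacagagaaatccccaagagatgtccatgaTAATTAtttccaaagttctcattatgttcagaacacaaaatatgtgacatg
Olfr1272: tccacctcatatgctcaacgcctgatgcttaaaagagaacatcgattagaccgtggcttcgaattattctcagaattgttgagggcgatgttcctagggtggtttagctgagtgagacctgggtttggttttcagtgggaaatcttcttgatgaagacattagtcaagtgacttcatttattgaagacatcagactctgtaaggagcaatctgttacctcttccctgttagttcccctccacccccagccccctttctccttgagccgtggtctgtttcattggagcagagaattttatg
Olfr1258: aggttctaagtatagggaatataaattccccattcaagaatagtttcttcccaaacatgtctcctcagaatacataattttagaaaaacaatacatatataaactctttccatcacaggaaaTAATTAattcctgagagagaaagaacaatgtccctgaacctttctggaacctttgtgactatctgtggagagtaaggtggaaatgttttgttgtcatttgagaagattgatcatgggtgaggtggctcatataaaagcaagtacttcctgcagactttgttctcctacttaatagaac

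The windows of *Olfr1154* and *Olfr1160* could be aligned over much of their length, with 84.7% of the window in matched positions, against a median of 6% over the 7260 pairs of member windows. Both held a TAATTG, starting 111 and 100 bases before the 5′ end. *Olfr1297* had a TAATTG at 294 and a TAATTA at 51 bases, *Olfr1258* a TAATTA at 178 bases, and *Olfr1272* had neither in this window. Searched on both strands, TAATTA was found in 45 of 121 member windows (37.2%), beside 26% of the windows of 1049 ORs, and TAATTG in 40 (33.1%), beside 34.5%. Windows of related members share sequence and are not independent, and the shares were not tested. Base composition was not taken into account. The median GC of the coding sequences was 41.6% in members, beside 44.7% in the other ORs. These are matches of letters and not sites at which binding was measured.

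*Olfr1272* (MOR227, chr2:90280263-90292841, minus strand) took 0.0204%, 0.0210% and 0.0220% in diluent, 0.0121%, 0.00452% and 0.0110% at 1% SBT, and 0.118%, 0.149% and 0.0747% at 100% SBT. The 100% libraries lay above all others, and by share the 1% libraries lay below diluent. *Olfr1272* had a median of 14 reads and a median share of 0.0146% over the 51 libraries. The 1% shares lay below that median, so the order of 1% and diluent rests on few reads. The log2 fold change was 2.83 (SE 0.45, adjusted p = 0.000911) at 100% and -1.04 (adjusted p = 0.994) at 1%. Its nearest relative, the neighbouring *Olfr1271* (90.4% identical), had a log2 fold change of 0.17 (adjusted p = 0.873) at 100%. Of the stretches of the *Olfr1272* transcript, 15.8% were shared with another gene.

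*Olfr1297* (MOR248, chr2:111615233-111626497, minus strand) was the member of the distal stretch that rose. It took 0.0727%, 0.112% and 0.0916% in diluent, 0.200%, 0.215% and 0.113% at 1% SBT, and 0.396%, 0.484% and 0.334% at 100% SBT. The 100% libraries lay above all others. The 1% libraries lay above diluent only narrowly, with the lowest at 0.113% beside 0.112%. *Olfr1297* had a log2 fold change of 2.53 (SE 0.33, adjusted p = 0.000249) at 100% and of 1.06 (adjusted p = 0.807) at 1%. Its nearest relative *Olfr1298* (91.9% identical) had a log2 fold change of -0.86 (adjusted p = 0.489) at 100%. Of the other 30 distal members tested, 6 had a positive fold change with TMM, and their median was -0.63, beside -0.07 over the 86 proximal members. At 1% SBT, against the same diluent libraries, 10 of 31 distal members were positive (median -0.30), beside a median of 0.0075 over 88 proximal members. For 100% against 1% SBT the median was -0.11 in both stretches. The common diluent group had the highest summed distal share of the diluent groups, 1.61%. Whether this set the distal medians was not tested.

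In family MOR231, *Olfr1238* and *Olfr1242* rose. *Olfr1238* took 0.00454%, 0.0280% and 0.0549% in diluent, 0.0362%, 0.0527% and 0.0706% at 1% SBT, and 0.140%, 0.198% and 0.116% at 100% SBT (log2 fold change 2.87, SE 0.58, adjusted p = 0.00432, and 3.53 without diluent replicate 3). *Olfr1242* took 0.0931%, 0.0997% and 0.0952% in diluent, 0.113%, 0.158% and 0.132% at 1%, and 0.186%, 0.290% and 0.132% at 100% (1.48, adjusted p = 0.0167). For *Olfr1238* the 100% libraries lay above all others, and for *Olfr1242* both SBT groups lay above diluent and overlapped each other. *Olfr1243*, 92.9% identical to *Olfr1242*, had a log2 fold change of 1.22 (adjusted p = 0.0728).

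The remaining members that rose were *Olfr1189* (MOR237) and *Olfr1193* (MOR226). *Olfr1189* took 0.0636%, 0.0595% and 0.0586% in diluent, 0.0145%, 0.105% and 0.113% at 1% SBT, and 0.107%, 0.181% and 0.153% at 100% SBT (log2 fold change 1.66, adjusted p = 0.00751). *Olfr1193* took 0.195%, 0.173% and 0.106% in diluent, 0.0845%, 0.0904% and 0.206% at 1%, and 0.347%, 0.312% and 0.288% at 100% (1.37, adjusted p = 0.0122). Both were above diluent in all 3 libraries at 100%. *Olfr1193* shared 17.7% of its stretches with a gene outside the tables.

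*Olfr1258*, the member with the highest share, fell. It took 0.547%, 0.567% and 0.626% in diluent, 0.456%, 0.701% and 0.584% at 1% SBT, and 0.179%, 0.258% and 0.217% at 100% SBT. Diluent and 1% overlapped, and all 100% libraries lay below both. It had a log2 fold change of -1.01 (SE 0.27, adjusted p = 0.0272). The call was lost without diluent replicate 2 (adjusted p = 0.0562), diluent replicate 3 (0.0651), 100% SBT replicate 1 (0.143) or replicate 3 (0.103). *Olfr1257*, a MOR232 receptor next to it and 81.4% identical, had a log2 fold change of 0.11.

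By family at 100% SBT, both tested members of MOR173 were called. In MOR231, 8 of 14 tested members had a positive log2 fold change (median 0.16, from -0.92 to 2.87), and in MOR225 5 of 10 (median 0.01), none of the latter called. In MOR233, 3 of 16 were positive (median -0.46), in MOR245 3 of 19 (median -0.79) and in MOR248 4 of 12 (median -0.33), beside the median of -0.07 over all ORs tested.

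**Figure D4:**
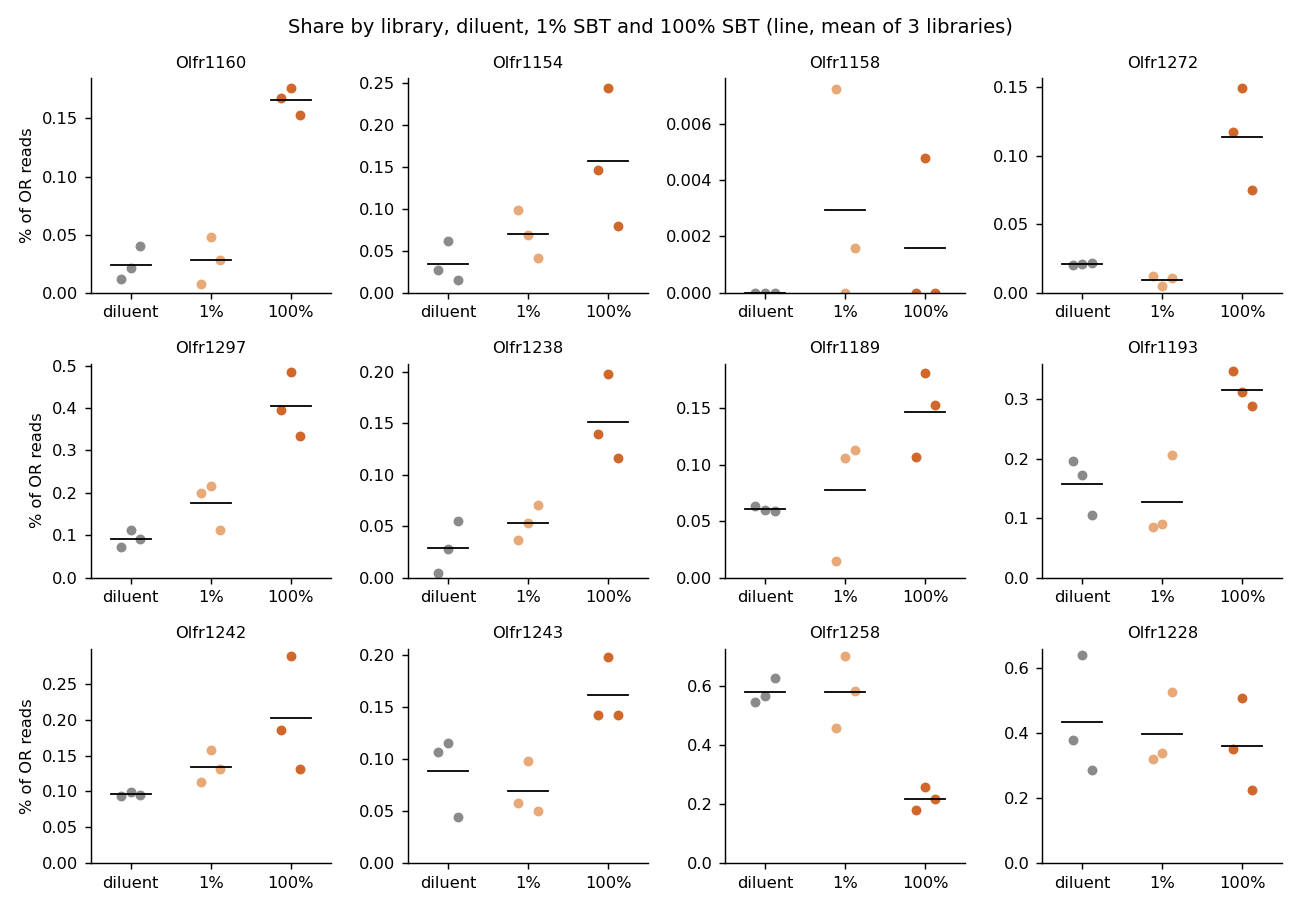
Share of OR reads, in percent, of 12 members in the 3 diluent libraries and in 3 libraries each at 1% and 100% SBT, with a panel per member, a point per library and a line for the mean of 3 libraries. *Olfr1160* lies between 0.153% and 0.176% at 100% SBT and at 0.0482% or below elsewhere, and *Olfr1258* is lowest at 100% SBT.

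Compared with each other, 100% and 1% SBT differed at 7 members, 6 higher and 1 lower at 100% of 119 tested, beside 7.15% and 0.376% of the 1063 ORs tested. These were *Olfr1272* (log2 difference 3.93, adjusted p = 0.000272), *Olfr1160* (2.86, 0.00187), *Olfr1297* (1.50, 0.0116), *Olfr1193* (1.59, 0.0158), *Olfr1243* (1.54, 0.0290), *Olfr1238* (1.80, 0.0492) and, lower, *Olfr1258* (-1.11, 0.0359). The count fell to 3 without 100% SBT replicate 1, 2 without its replicate 2, 4 without its replicate 3, and 4 without replicate 2 or replicate 3 at 1%. Blocked on replicate number, 8 members were higher and 1 lower, beside 8.84% and 1.13% of ORs. *Olfr1160* and *Olfr1272* were called in all 16 settings, *Olfr1297* in 13, *Olfr1258* in 12, *Olfr1193* in 11, *Olfr1243* in 10 and *Olfr1238* in 8.

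At 1% SBT no member was called of 119 tested (edgeR), beside 0.863% of 1043 ORs, and DESeq2 called 0. At an unadjusted p under 0.05, 2 members were higher and 3 lower, beside 2.97% and 2.11% of ORs. The member with the lowest p was *Olfr1259* (MOR232), at 0.157%, 0.208% and 0.166% against 0.0318%, 0.0945% and 0.0989% in diluent, without overlap (log2 fold change 1.37, adjusted p = 0.488).

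At 0.01% SBT, again, edgeR and DESeq2 called 0 members, of 121 tested, beside 0.466% of 1072 ORs, with 1 higher and 0 lower at an unadjusted p under 0.05 (2.05% and 0.653% of ORs). That member was *Olfr1309* (0.0112%, 0.0201% and 0.0408% against 0.0138%, 0.00696% and 0.00512% in diluent, log2 fold change 1.43, adjusted p = 0.999, and 0.78 without odor replicate 3). The members that rose at 100% SBT overlapped their diluent there. *Olfr1160*, for example, took 0.0306%, 0.0191% and 0.0262% against 0.0233%, 0.0408% and 0.0256%.

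With all libraries as labelled, 10 mM MTMT called 0 members of 121 by edgeR and 0 by DESeq2, and 0 of 1054 ORs (0%). At an unadjusted p under 0.05, 10 members were higher and 0 lower, beside 5.31% and 1.23% of ORs. The median log2 fold change was 0.21 over the members and 0.03 over all ORs, and without TMM it was -0.14 and -0.28. Without the library labelled odor 1, with TMM, it was 0.29 and -0.01. In the distal stretch 28 of 31 tested members were positive with TMM, with a median of 0.52, beside a median of 0.11 over the 90 proximal members, and without that library 28 of 31 were positive, with medians of 0.63 and 0.18. By share, the summed level of the distal stretch was 1.67% ± 0.572 (SD, n = 3) against 1.34% ± 0.183 (exact permutation p = 0.6), and it was 1.05% in the library labelled odor 1 and 2.17% and 1.78% in the others.

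Without the library labelled 10 mM MTMT odor 1, 9 members were higher and 0 lower of 119 tested, beside 3.55% and 0.0959% of 1043 ORs. These were *Olfr1294*, *Olfr1297*, *Olfr1299*, *Olfr1302* and *Olfr1317* of the distal stretch and *Olfr1193*, *Olfr1257*, *Olfr1259* and *Olfr1265* of the proximal one. This comparison rests on 2 odor libraries, and the library left out was singled out after the data were seen.

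*Olfr1294* (MOR248) took 0.0745% in the library labelled odor 1 and 0.409% and 0.336% in the libraries labelled odor 2 and odor 3, against 0.126%, 0.112% and 0.105% in diluent. The library labelled odor 1 lay below diluent and the others above it. The log2 fold change was 2.15 (adjusted p = 0.00181) without that library and 1.67 (adjusted p = 0.474) with it.

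*Olfr1257* (MOR232) had the highest share of the 9, 0.180%, 1.23% and 0.539% in the odor libraries in the same order, against 0.310%, 0.202% and 0.241% in diluent (log2 fold change 2.26, adjusted p = 0.00809, without the library labelled odor 1). *Olfr1259* took 0.121%, 0.255% and 0.325% against 0.105%, 0.114% and 0.145% (1.71, adjusted p = 0.00526), and *Olfr1297* 0.0438%, 0.211% and 0.277% against 0.116%, 0.0579% and 0.123% (1.77, adjusted p = 0.0171). In each, the library labelled odor 1 lay within or below the range of diluent and the other odor libraries lay above it. The remaining 5 had log2 fold changes of 1.23 to 1.79, and for *Olfr1193*, the lowest of them, the library labelled odor 1 lay above diluent too (0.134% against 0.120% or less).

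Most of the same 9 members were high in the library labelled CPD odor 2. There *Olfr1294* took 0.437%, *Olfr1257* 1.15%, *Olfr1259* 0.307%, *Olfr1297* 0.212%, *Olfr1299* 0.279% and *Olfr1265* 0.209% of OR reads. That library lay above the other 5 CPD libraries for 8 of the 9 (88.9%), for 14 of all 121 tested members (11.6%) and for 8.48% of the ORs tested.

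**Figure D5:**
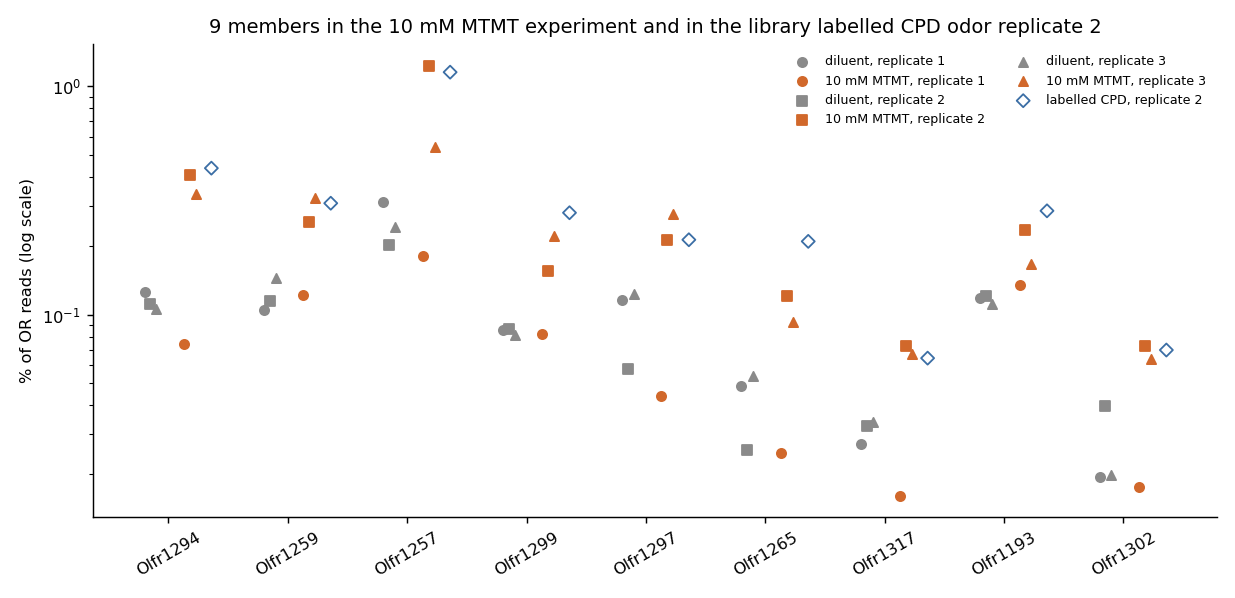
Share of OR reads, in percent on a log axis, of the 9 members that were higher in 10 mM MTMT without the library labelled odor 1, with grey symbols for diluent libraries, orange for libraries labelled 10 mM MTMT, a shape per replicate number, and an open diamond for the library labelled CPD odor 2. *Olfr1294* is at 0.0745% in the library labelled odor 1 and at 0.437% in the library labelled CPD odor 2.

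In CPD, edgeR and DESeq2 called 0 members of 121 and 0 of 1050 ORs (0%), with 4 members higher and 0 lower at an unadjusted p under 0.05 (2.86% and 0.952% of ORs). Without the library labelled CPD odor 2 there were 0 at an unadjusted p under 0.05. The member with the lowest p was *Olfr1265*, at 0.0313%, 0.209% and 0.0655% in odor libraries 1 to 3 against 0.0265%, 0.0348% and 0.0319% in diluent. The odor libraries overlapped diluent. The log2 fold change of 1.95 (adjusted p = 0.993) was 0.68 without the library labelled CPD odor 2.

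At 100 µM MTMT, edgeR and DESeq2 called 0 members of 121, beside 0.281% of 1068 ORs, with 3 higher and 2 lower at an unadjusted p under 0.05 (2.25% and 1.87% of ORs). The lowest p was that of *Olfr1255* (MOR232), at 0.0143%, 0.0340% and 0.0210% against 0.0480%, 0.0504% and 0.0324% in diluent, which overlapped (log2 fold change -0.92, adjusted p = 0.955). Of the left-out receptors, *Olfr1295* had a log2 fold change of 1.69 (adjusted p = 0.00204).

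In (E)-β-farnesene, 1 member rose of 121 tested (0.826%), beside 1.77% of 1071 ORs. This was *Olfr1259* (MOR232, chr2:89940532-89948664, minus strand), at 0.181%, 0.234% and 0.167% against 0.0959%, 0.0873% and 0.0875% in diluent. All odor libraries lay above all diluent libraries. The log2 fold change was 1.15 (SE 0.24, adjusted p = 0.0109), and the call was lost without diluent replicate 2 (adjusted p = 0.102), odor replicate 2 (0.106) or diluent replicate 3 (0.0757), each of which left 0 members called.

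Against the same diluent libraries, *Olfr1259* took 0.0983%, 0.0769% and 0.0951% at 100 µM MTMT and 0.0916%, 0.0932% and 0.0786% in 2,5-DMP, within or near their range. Its nearest relative *Olfr1255* (96.1% identical) had a log2 fold change of -0.41 (adjusted p = 0.992) in farnesene. The left-out *Olfr1312* and *Olfr1280* had log2 fold changes of 2.73 and 1.88 there.

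In the other comparisons edgeR and DESeq2 called 0 members. For 2,5-DMP (119 tested, beside 0.841% of 1070 ORs, with 1 higher and 0 lower at an unadjusted p under 0.05, beside 2.34% and 2.06%), that member was *Olfr1200*, at 0.120%, 0.134% and 0.149% against 0.0768%, 0.0953% and 0.0851%, without overlap (log2 fold change 0.61, adjusted p = 0.668). For DHB (119 tested, beside 0.564% of 1064 ORs, with 0 higher and 1 lower, beside 2.26% and 1.32%), it was *Olfr1225*, at 0.0465%, 0.0451% and 0.0336% against 0.123%, 0.0494% and 0.0634%, lower in all 3 libraries (-0.79, adjusted p = 0.994). For β-caryophyllene (120 tested, and 0% of 1048 ORs, with 3 higher and 4 lower, beside 2.29% and 2.58%), the lowest p was that of *Olfr1274* (MOR228), at 0.183%, 0.294% and 0.301% against 0.119%, 0.134% and 0.118%, without overlap (1.14, adjusted p = 0.904).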

How the data were processed

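The deposited values were expected counts of reads per gene, which per the labels and the methods the authors made with STAR and RSEM on GRCm38 from single reads of libraries whose kit is not stated to keep strand. RSEM can split reads among near-identical receptors. The tables also held the authors' own comparisons (fold change, logCPM, likelihood ratio, p and false discovery rate), which were not used, and 6 columns that match no sample here were not used either.

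Counts were taken as whole numbers, with any fraction dropped, and summed over all 1117 ORs for shares. Libraries came from separate mice. A comparison tested the ORs that reached 10 reads summed over its libraries, with edgeR 4.0.16 (quasi-likelihood, TMM, R 4.3.3), with Benjamini-Hochberg adjustment over all ORs tested and a threshold of 0.05. DESeq2 1.42.0, no TMM, other filters, the likelihood ratio test, a replicate block and each library left out were alternatives. Summed shares were compared with exact permutation tests, or 100000 permutations within experiments. The standard error was the log2 fold change over the root of F. Python 3.11.15 with numpy 2.4.6, pandas 2.3.3, scipy 1.17.1, biopython 1.88 and matplotlib 3.10.9 was used, and the fits were tested on simulated data. Coordinates are those of GENCODE M21 on GRCm38.p6, and MOR names come from RefSeq synonyms.

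Replicate numbers come from the sample labels. Same-numbered odor and diluent libraries deviated together, every correlation over 0.1, in 7 of the 10 comparisons with diluent. In 0.01% SBT, 100 µM MTMT and 10 mM MTMT the correlations were positive too, the lowest being 0.0193, 0.0577 and 0.0766. The main fits did not use this pairing, and the replicate block did. Depth was 27301 to 160001 OR reads per library, and without molecular identifiers intervals cover counting error only.

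The members and lists were chosen with earlier results of these data known. Named in each comparison were up to 5 members higher and 3 lower with the lowest adjusted p, or the member with the lowest p where none passed. Named too were the 8 highest by share and per kb, the 4 lowest by share, the 5 largest ratios of highest library to median, the 3 smallest and 3 largest SDs, and the left-out receptors. The other members called at 100% SBT and in 10 mM MTMT without a library, and the relatives of called members, were named after their values were seen.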

Additional observations from a re-analysis of the deposited data

Results flagged for a closer look

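The effect of SBT differed between 1% and 100% at 7 members, by the test of one dose against the other (edgeR quasi-likelihood test, Benjamini-Hochberg adjusted p below 0.05), 6 higher and 1 lower at 100% of 119 tested, beside 7.15% and 0.376% of the 1063 ORs tested. Of these, *Olfr1160* and *Olfr1272* passed in all 16 settings tried. The log2 difference of 100% from 1% was 3.93 for *Olfr1272*, 2.86 for *Olfr1160*, 1.80 for *Olfr1238*, 1.59 for *Olfr1193*, 1.54 for *Olfr1243*, 1.50 for *Olfr1297* and -1.11 for *Olfr1258*. By share, the 1% libraries lay below diluent in all 3 replicates for *Olfr1272*, on few reads, and narrowly above it for *Olfr1297*. Neither passed the edgeR test of 1% SBT against diluent (adjusted p = 0.994 and 0.807).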

How the results depend on the processing

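Blocking on replicate number called 15 members at 100% SBT in place of 9, as did the likelihood ratio test, and the block gave 9 in place of 7 for 100% against 1% SBT and the same count in every other comparison. Without TMM, 100% against 1% SBT called 3 in place of 7. Leaving out 1 library at a time gave 6 to 10 members at 100% SBT, 2 to 7 for 100% against 1% SBT, 0 to 1 in farnesene, and 0 to 9 in 10 mM MTMT, where the 9 came without the library labelled odor 1. Scaled by TMM, the log2 difference in summed share became 0.0745 in place of -0.38 at 100% SBT, 0.24 in place of -0.07 in 10 mM MTMT and 0.10 in place of -0.03 within experiments, all of the opposite sign, and -0.0415 at 1% SBT, 0.0776 in farnesene and 0.22 in CPD. The 10 mM MTMT and CPD values here include the library labelled 10 mM MTMT odor 1 and the library labelled CPD odor 2. Between diluent groups F was 0.65 with TMM and 2.14 without the β-caryophyllene experiment. With the 12 left-out receptors the difference was 0.15 at 100 µM MTMT and 0.10 in farnesene, and without the 5 highest members it was -0.28 at 100% SBT. The cause was not tested. No named member reversed in the 270 values with their alternatives, while 25 lost and 1 gained a call. These values leave out called members beyond the 5 higher ones with the lowest adjusted p in a comparison. Among those, *Olfr1242* passed in 9 of 13 settings at 100% SBT, and *Olfr1238* in 8 of 16 for 100% against 1% SBT. Low depth, down to 27301 OR reads in a diluent library of the 1% and 100% SBT experiment, limits the members with few reads.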
